A study of Mus musculus with 25 samples.

Results

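Hepatocytes of a mouse line that carries floxed Lats1 and Lats2 alleles were set against hepatocytes of plain C57BL/6 mice, both untreated. The comparison used 8 of the 25 libraries of the series: 4 labelled Lats1/2 flox ctrl (strain Lats1flox/flox; Lats2flox/flox, no treatment, effective genotype WT) and 4 labelled BL/6 ctrl (no treatment). They were chosen by these labels alone, and all 12970 genes that passed a filter on low counts, of 37117 in the deposited table, were described. Each library held the RNA of 500000 liver cells that had been released by collagenase perfusion and collected by fluorescence-activated sorting, and 3′ tags were sequenced (QuantSeq 3′ mRNA-Seq FWD). Some results were also set beside other groups of the series. Lats1/2 KO (n = 3) came from the floxed line 1 week after a virus carrying Cre (AAV-Cre). BL/6 AAV-Cre (n = 3) was taken 24 hours after the same kind of virus. BL/6 Dox (n = 4) had 1 week of 0.2 mg/ml doxycycline and 2.5% sucrose in the water, and ApoYap ctrl (n = 4) was the untreated line with the ApoE-rtTA and TRE-hYAP transgenes. The labels give no sex, age, background or floxed exons for the lines, and do not state that replicates were separate animals. The p-values below therefore measure the spread between libraries, which may be technical. That spread, like the filter, was taken from all 25 libraries of the 7 groups and not from the 8 alone.

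LATS1 and LATS2 are the kinases at the end of the Hippo cascade. They phosphorylate YAP and TAZ, which keeps these coactivators out of the nucleus and away from TEAD factors, and in liver their loss is known to turn on YAP target genes. A floxed allele carries loxP sites around exons and is meant to leave the gene working until Cre is present. Such alleles are made in embryonic stem cells of one strain and are usually bred into another, and DNA next to the engineered gene can travel with it through the crosses. Hepatocytes freed by collagenase are also known to change stress and early response genes during the isolation itself.

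The floxed libraries held 9447816 to 12220977 counts and the BL/6 ctrl libraries 9522508 to 14317362. Alb, the main plasma protein of hepatocytes, was among the most abundant mRNAs in both groups, at 49514, 58068, 52072 and 45593 CPM (counts relative to the size of the library, scaled by the trimmed mean of M values, TMM) in floxed cells and 61299, 61249, 67245 and 67309 CPM in BL/6 ctrl cells (log2 fold change -0.32, adjusted p = 0.23). The deposited table has a fixed order of columns. All 4 BL/6 ctrl libraries stand in columns 1 to 13 and all 4 floxed ones in columns 14 to 25, which also hold Lats1/2 KO, BL/6 AAV-Cre and BL/6 Dox 3 and 4, while BL/6 Dox 1 and 2 stand in columns 1 to 13. The labels give no batch or date. In the comparison of the 8 libraries, the line and the column position cannot be told apart, so values of other BL/6 groups are given beside most results, for single genes or for their list. In bulk RNA, fewer cells of a type and less RNA per cell cannot be told apart either.

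Untreated floxed hepatocytes differed from BL/6 ctrl hepatocytes in 535 genes (4.12% of those tested) by edgeR's quasi-likelihood test at a Benjamini-Hochberg adjusted p below 0.05, which is what "called" means throughout. Of these, 409 were higher (3.15% of all tested) and 126 lower (0.971%) in floxed cells. Some of the largest changes were in genes near Lats2 on chromosome 14, while 7 of 26 small nucleolar RNAs, both mitochondrial rRNAs and 10 of 21 heat shock genes were higher and 20 of 77 ribosomal protein mRNAs lower. None of these 7, 10 or 20 was called by edgeR when BL/6 AAV-Cre took the place of BL/6 ctrl, a comparison that called 0.123% of all genes. Most changes were small: 90 of the higher and 32 of the lower genes had an absolute log2 fold change of at least 1, and the median was 0.68 among the higher and -0.67 among the lower genes, against 0.00 over all genes tested. The 4 floxed and 4 BL/6 ctrl libraries did not overlap for 490 of the called genes, and for 13.7% of all genes tested. The counts rested on single libraries: they were 168 higher and 34 lower without BL/6 ctrl 4, 241 and 54 without floxed library 3, 248 and 57 without BL/6 ctrl 1, 276 and 67 without BL/6 ctrl 3, 280 and 73 without floxed library 2, and 329 and 83 without floxed library 1. With scaling by total counts alone, 273 were higher and 188 lower. A fit of only the 8 libraries tested 10494 genes, of which 507 were higher and 316 lower.

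Among the autosomes and chromosome X, the called genes stood most densely on chromosome 14, which carries Lats2 (57689662 to 57758388 in GRCm38, minus strand). There 36 of 431 tested genes were called (8.35%), 20 higher and 16 lower, against 4.14% of all 12742 genes with 1 position. Among the other autosomes the share ran from 2.5% on chromosome 11 to 6.79% on chromosome 12. Within 10 Mb of Lats2, measured between the lower coordinates of the genes, 21 of 162 tested genes were called (13%), 10 higher and 11 lower. Within 5 Mb it was 10 of 96 (10.4%), within 20 Mb 26 of 237 (11%), and in the interval between 50 and 60 Mb of the chromosome 17 of 105 (16.2%). Of the 21, 13 stayed called whichever of the 8 libraries was left out. The window held 3 higher genes without BL/6 ctrl 4, 3 without floxed library 3 and 5 without BL/6 ctrl 1, and 10 to 12 lower genes whichever library was left out. Around Lats1 on chromosome 10, 2 of 48 genes within 10 Mb were called (4.17%), a share close to that of all genes.

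**Figure D1:**
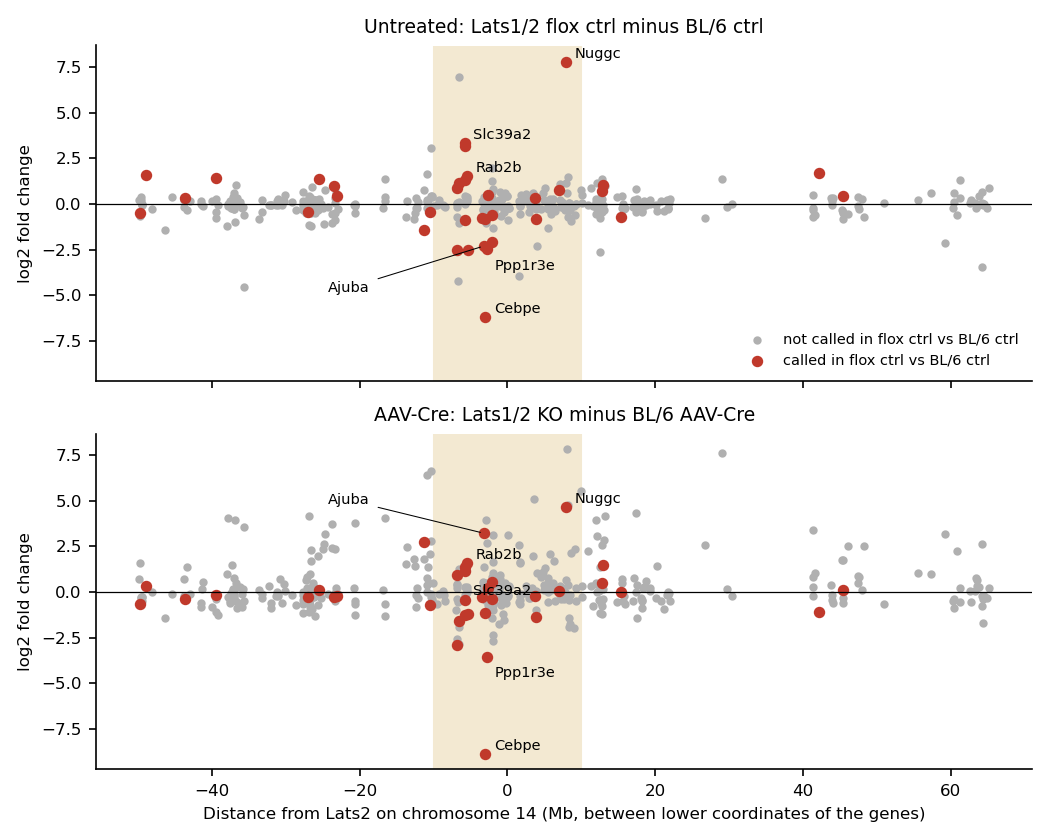
Log2 fold change of each tested gene on chromosome 14 against its distance from Lats2 in Mb, in untreated floxed minus BL/6 ctrl cells (top) and in Lats1/2 KO minus BL/6 AAV-Cre cells (bottom). Red points are genes called in the untreated comparison and the band marks 10 Mb either side of Lats2, where 21 of 162 genes were called. The value of Nuggc is a fitted one against libraries at 0 and depends on the prior count of the fit.

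The largest decrease among the called genes near Lats2 was in Cebpe (54710360 to 54712174, 2.98 Mb from Lats2), which encodes a C/EBP factor best known from granulocyte maturation. It had 0.11, 0, 0 and 0 CPM in floxed cells against 2.2, 2.98, 3.77 and 2.25 CPM in BL/6 ctrl cells. In all, 1 count was found in the floxed libraries and 105 in the BL/6 ctrl ones, a ratio of BL/6 ctrl over floxed cells of 99.5 (95% exact interval 17.5 to 3967, counting error only; adjusted p = 9.1e-05). Separate libraries of the same lines divided in the same way, with 0, 0 and 0 CPM in Lats1/2 KO and 5.34, 4.49 and 4.75 CPM in BL/6 AAV-Cre cells.

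Several protein-coding neighbours were lower in floxed cells without any overlap between the 2 groups. Ppp1r3e, a glycogen-targeting subunit of protein phosphatase 1, had 0.219, 0.454, 0.476 and 0.789 CPM in floxed cells against 3.22, 2.27, 1.65 and 3.83 CPM in BL/6 ctrl cells (log2 fold change -2.47 ± 0.41, SE, adjusted p = 0.0018). Sall2, a zinc finger transcription factor, had 0.439, 1.14, 0.357 and 0.0986 CPM in floxed cells against 4.01, 2.86, 2.71 and 1.92 CPM in BL/6 ctrl cells (-2.52 ± 0.42, adjusted p = 0.0018). Both were low genes, with at most a few CPM in BL/6 ctrl cells. Pck2, the mitochondrial phosphoenolpyruvate carboxykinase, had 0.658, 0.341, 0.119 and 0.69 CPM in floxed cells against 2.28, 2.03, 1.65 and 2.03 CPM in BL/6 ctrl cells (-2.09 ± 0.41, adjusted p = 0.0043). Ndrg2, a stress-responsive gene of the NDRG family, was abundant, at 633, 772, 737 and 707 CPM in floxed cells against 1200, 1309, 1322 and 1370 CPM in BL/6 ctrl cells (-0.87 ± 0.17, adjusted p = 0.0048). Every BL/6 ctrl library of Ndrg2 lay above every floxed one by more than the range within either group. Log2 fold changes against BL/6 AAV-Cre were -2.76 for Ppp1r3e, -1.97 for Sall2, -2.05 for Pck2 and -0.61 for Ndrg2, and Ppp1r3e alone of these was called there.

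Both called proteasome genes near Lats2 were lower, and other proteasome genes were not examined as a group. Psmb5, a catalytic subunit, had 14.2, 15.9, 15.7 and 11.1 CPM in floxed cells against 23.3, 25.7, 28.6 and 25.2 CPM in BL/6 ctrl cells (-0.85 ± 0.14, adjusted p = 0.0016). Psme2, part of the PA28 activator, had a log2 fold change of -0.63 ± 0.16 (adjusted p = 0.023), and was no longer called without floxed library 4, BL/6 ctrl 1 or BL/6 ctrl 4 (adjusted p up to 0.081). Spryd7 on the other side of Lats2 had 13.5, 11, 11.3 and 10.4 CPM in floxed cells against 20.9, 19.6, 17.1 and 24.4 CPM in BL/6 ctrl cells (-0.83 ± 0.14, adjusted p = 0.0018), and Abhd4, a lipid hydrolase, fell by 0.78 ± 0.17 (adjusted p = 0.0092). Against BL/6 AAV-Cre the values were -0.67 for Psmb5, -0.34 for Psme2, -0.93 for Spryd7 and -0.66 for Abhd4, with Spryd7 called.

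Other genes of the same stretch were higher in floxed cells. Rab2b, a small GTPase of vesicle traffic, had 5.71, 4.66, 3.81 and 3.94 CPM in floxed cells against 1.41, 0.836, 1.88 and 2.14 CPM in BL/6 ctrl cells (1.53 ± 0.26, adjusted p = 0.0018). Nuggc, a nuclear GTPase known from germinal centre B cells, had 0.987, 1.82, 1.31 and 4.83 CPM in floxed cells and 0 in all 4 BL/6 ctrl libraries. With 85 counts against 0, and a floor of 3 counts over the group, it was at least 29.9-fold higher (adjusted p = 0.0021). Rnase4, a secreted ribonuclease, had 1031, 1939, 2071 and 1781 CPM in floxed cells against 752, 923, 686 and 667 CPM in BL/6 ctrl cells (1.17 ± 0.27, adjusted p = 0.016). The groups did not overlap in these genes, though floxed library 1 came close to the BL/6 ctrl range for Rnase4. Slc39a2, a zinc importer, had 0.658, 1.93, 4.29 and 2.76 CPM in floxed cells against 0.472, 0.239, 0 and 0.113 CPM in BL/6 ctrl cells (3.35 ± 0.78, adjusted p = 0.015). The remaining higher genes were Tep1 (0.88), Arhgef40 (1.28), Kif13b (0.78), Ngdn (0.46), Kpna3 (0.34) and Gm16617 (3.15), given as log2 fold changes. Rnase4 and Slc39a2 lost their calls without BL/6 ctrl 4 or floxed library 3 (adjusted p up to 0.061 and 0.058), and Tep1, Kif13b, Ngdn, Kpna3 and Gm16617 without at least 3 of the 8 libraries in turn, BL/6 ctrl 1, BL/6 ctrl 4 and floxed library 3 among them (adjusted p up to 0.127). The log2 fold changes were, with BL/6 AAV-Cre as reference, 1.38 for Rab2b, 0.53 for Rnase4, 1.84 for Slc39a2, 0.73 for Tep1, 0.91 for Arhgef40, 0.42 for Kif13b, 0.63 for Ngdn and 0.12 for Kpna3, with Rab2b called. Gm16617 lies antisense to Arhgef40, and the lower gene Gm26782 (-2.50) antisense to Tep1. How the counting treated strand is not stated, so the reads of each pair cannot be told apart. Rab2b overlaps Tox4 on the opposite strand, and the same limit holds there. Rnase4 overlaps Ang and Slc39a2 overlaps Mettl17 on the same strand, so strand does not separate their reads, and how shared reads were counted is not stated.

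Ajuba (54567472 to 54577558), which encodes a LIM scaffold that binds LATS kinases, is both a Hippo component and a known YAP target. It had 0.11, 1.93, 1.31 and 1.38 CPM in floxed cells against 5.58, 7.04, 4.71 and 6.08 CPM in BL/6 ctrl cells (log2 fold change -2.30 ± 0.36, adjusted p = 0.0012). All floxed libraries lay well below all BL/6 ctrl ones. In Lats1/2 KO it was high, at 37.4, 25.9 and 32.5 CPM, against 3.95, 2.84 and 3.44 CPM in BL/6 AAV-Cre cells (3.22 ± 0.34).

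The comparison of Lats1/2 KO with BL/6 AAV-Cre uses other libraries of the same lines, all in columns 14 to 25, and also differs by the knockout and by the time after the virus. It called 35.3% of all genes. Of the 21 genes called near Lats2, 16 had the same sign there and 11 the same call. Ppp1r3e had 0.0865, 0.411 and 0.318 CPM in Lats1/2 KO against 3.84, 4.26 and 2.14 CPM in BL/6 AAV-Cre cells, and Rab2b had 6.14, 4.86 and 4.72 CPM against 1.6, 2.13 and 1.49 CPM. For Ndrg2 the values were 449, 360 and 535 CPM in Lats1/2 KO and 1108, 1063 and 1080 CPM in BL/6 AAV-Cre cells. Rnase4 went the other way there (-1.57 ± 0.32), as did Ajuba. Over all called genes, chromosome 14 included, the higher ones did not share their sign more often than all genes. Of the 409 genes higher in untreated floxed cells, 196 were above 0 in Lats1/2 KO (47.9%, against 50.5% of all genes). There 52 of the 409 were called higher and 57 lower. Of the 126 lower ones, 80 were below 0 (63.5%), with 33 called lower and 14 higher.

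**Figure D2:**
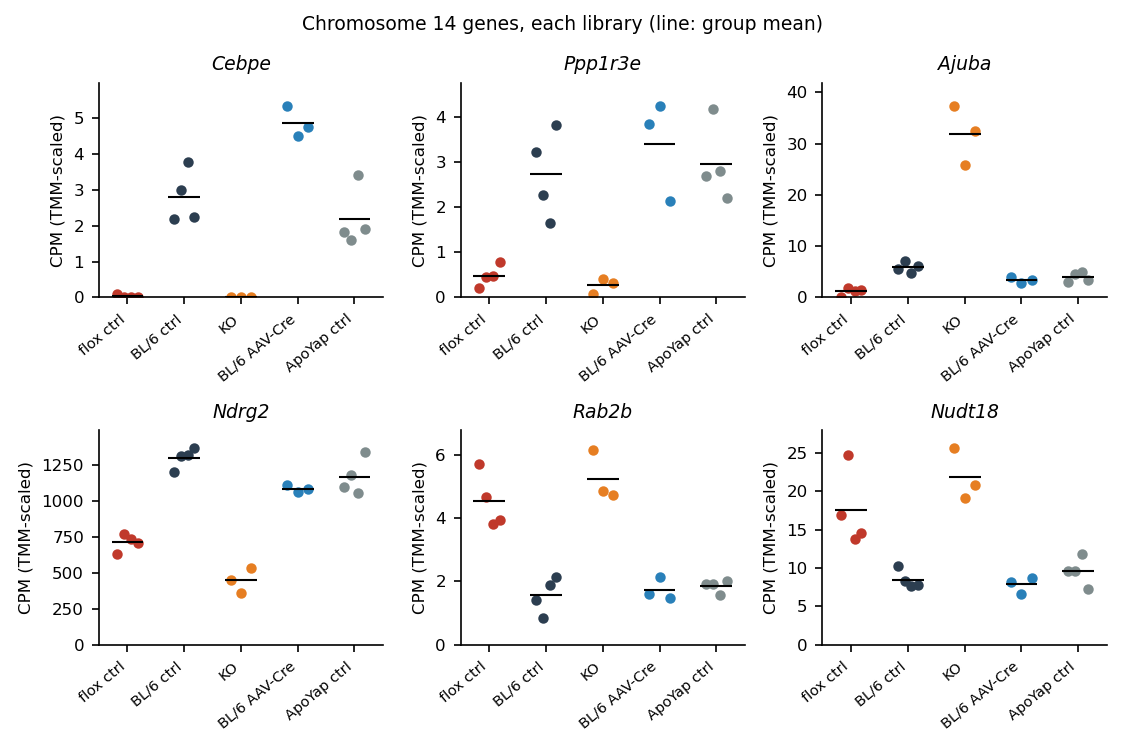
TMM-scaled CPM of 6 chromosome 14 genes in each library of 5 groups, with a line at the group mean. Cebpe, Ppp1r3e and Ndrg2 are low and Rab2b and Nudt18 high in both groups of the floxed line (flox ctrl and KO), while Ajuba is lowest in untreated floxed cells and highest in KO.

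Nudt18 lies 12.89 Mb from Lats2, outside the 10 Mb window, and was picked after its values were seen. It encodes a nudix hydrolase that cleans oxidised nucleotides. It had 16.9, 24.8, 13.8 and 14.6 CPM in floxed cells against 10.2, 8.36, 7.65 and 7.77 CPM in BL/6 ctrl cells (1.04 ± 0.18, adjusted p = 0.0025), and 25.7, 19.2 and 20.8 CPM in Lats1/2 KO against 8.22, 6.62 and 8.75 CPM in BL/6 AAV-Cre cells. Bmp4, a BMP ligand 11.31 Mb from Lats2 on the other side, had 17.2, 8.4, 7.27 and 7.79 CPM in floxed cells against 22.9, 21.2, 29.4 and 37.1 CPM in BL/6 ctrl cells (-1.44 ± 0.29, adjusted p = 0.0066). Here BL/6 AAV-Cre cells, at 8.97, 6.03 and 5.49 CPM, were as low as the floxed ones.

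Near Lats1, both called genes act in mitochondria. Rmnd1, needed for mitochondrial translation, had 3.18, 8.52, 6.43 and 5.03 CPM in floxed cells against 11.9, 10.1, 12.2 and 11.9 CPM in BL/6 ctrl cells (-1.0 ± 0.19, adjusted p = 0.0040). It was also low in Lats1/2 KO, at 4.32, 6.09 and 5.68 CPM, against 11.6, 9.7 and 11.6 CPM in BL/6 AAV-Cre cells. Mthfd1l, an enzyme of mitochondrial one-carbon metabolism, had 0.878, 1.59, 0.357 and 2.07 CPM in floxed cells against 0.236, 0.239, 0.353 and 0.338 CPM in BL/6 ctrl cells (2.07 ± 0.54, adjusted p = 0.029), with the lowest floxed library next to the highest BL/6 ctrl one. The call of Mthfd1l was lost in 6 of the 8 fits without 1 library, all but those without floxed library 1 or 3 (adjusted p up to 0.106).

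The engineered genes themselves were not called. Lats1 had 13.9, 12.3, 13 and 14.9 CPM in floxed cells against 10.1, 9.67, 12.6 and 13 CPM in BL/6 ctrl cells (0.26 ± 0.20, adjusted p = 0.52). Lats2 had 13.1, 12.9, 13.7 and 13 CPM in floxed cells against 9.9, 8.83, 11 and 9.58 CPM in BL/6 ctrl cells (0.42 ± 0.19, adjusted p = 0.23). The 2 groups did not overlap for Lats2 and overlapped for Lats1. Lats2 was called in a fit of the 3 untreated groups alone (0.41, adjusted p = 0.041) and against BL/6 Dox 1 and 2 (0.80, adjusted p = 0.024), and was -0.13 against BL/6 AAV-Cre. After Cre, Lats1 had 5.1, 4.79 and 2.97 CPM in Lats1/2 KO against 13.9, 16.1 and 13.4 CPM in BL/6 AAV-Cre cells, while Lats2 had 7.7, 17.8 and 10.5 CPM against 14.1, 15 and 14.2 CPM. A 3′ tag reports a deletion only where the deleted part takes the tag or the message with it.

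Of 30 Hippo components tested, Vgll4, a TEAD cofactor, was higher and Ajuba lower (6.67%, against 4.12% of all genes), and the list's median log2 fold change was 0.06. Vgll4 had 62.9, 35.1, 39.4 and 51 CPM in floxed cells against 23.3, 23.6, 33 and 36.3 CPM in BL/6 ctrl cells (0.70 ± 0.17, adjusted p = 0.018), so that floxed library 2 lay inside the BL/6 ctrl range. Without floxed library 1, BL/6 ctrl 1 or BL/6 ctrl 2 it was not called (adjusted p up to 0.081). Yap1 had 42.6, 45.4, 43.6 and 41.4 CPM in floxed cells against 44.1, 46.7, 44.6 and 43.6 CPM in BL/6 ctrl cells (-0.05 ± 0.11, adjusted p = 0.85), and Wwtr1, which encodes TAZ, had a log2 fold change of 0.34 ± 0.18 (adjusted p = 0.32). Against BL/6 AAV-Cre, Vgll4 had a log2 fold change of 0.22. Of 22 YAP and TAZ target genes tested, Ajuba was called (4.55%) and the median was -0.36. Ccn1, a secreted matrix protein and common YAP readout, had 9.77, 8.86, 8.22 and 5.52 CPM in floxed cells against 11.3, 7.64, 13.2 and 12.1 CPM in BL/6 ctrl cells (-0.46 ± 0.31, adjusted p = 0.45). Its sister Ccn2 had 1.32, 1.25, 1.19 and 1.28 CPM in floxed cells against 1.89, 0.477, 0.353 and 4.73 CPM in BL/6 ctrl cells (-0.58 ± 0.61, adjusted p = 0.66), with BL/6 ctrl 4 far above the others and a value of 0.31 without it. Ankrd1 was not called either (-0.89 ± 0.94, adjusted p = 0.66).

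Small nucleolar RNAs (snoRNAs) guide chemical modification of ribosomal and spliceosomal RNA and are mostly cut from introns of host genes. Of 26 tested, 7 were higher and 0 lower (26.9%), with a median log2 fold change of 1.02, whereas protein-coding genes were called in 4.16%. Without BL/6 ctrl 4 or floxed library 3, 4 snoRNAs were called. Most of the 26 were low in counts. A filter of 10 CPM in 3 libraries kept 4, of which 1 was higher, with a median of 0.18. A fit of only the 8 libraries tested 12, of which 5 were higher, with a median of 1.19. Summed with the related scaRNAs, before TMM scaling, snoRNAs took 1428 to 1491 CPM in floxed cells. In BL/6 ctrl cells the sum was 966 to 1488 CPM, so the groups overlapped. The sequences of the 4 snoRNAs with the smallest p are given because the assay primes on runs of A. They come from the GENCODE M21 transcripts of GRCm38, written 5′ to 3′, with the longest run of A in capitals. Where runs tie, as in Snord89, the first alone is in capitals.
Snord89 (chr1:39548745-39548854, minus strand, 110 bases): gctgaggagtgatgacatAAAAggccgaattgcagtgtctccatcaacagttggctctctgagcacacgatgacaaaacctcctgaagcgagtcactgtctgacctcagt
Snord87 (chr1:9942463-9942549, minus strand, 87 bases): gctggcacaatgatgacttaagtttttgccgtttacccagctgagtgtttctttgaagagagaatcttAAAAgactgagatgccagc
Snora30 (chr7:127527874-127528003, plus strand, 130 bases): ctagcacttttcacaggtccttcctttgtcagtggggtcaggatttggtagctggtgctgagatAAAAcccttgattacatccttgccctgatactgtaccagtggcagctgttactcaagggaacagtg
Gm26205 (chr5:121205010-121205143, plus strand, 134 bases): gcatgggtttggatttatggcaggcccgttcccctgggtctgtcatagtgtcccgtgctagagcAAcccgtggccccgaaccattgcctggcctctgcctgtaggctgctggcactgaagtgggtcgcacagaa
The longest run of A was 4 bases in the first 3 of these and 2 in Gm26205. In the other called snoRNAs it was 3 bases in Gm24130, 3 in Gm22748 and 8 in Snord49b, and whether priming took place there was not tested.

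Snord89, a C/D box snoRNA, had 333, 299, 281 and 355 CPM in floxed cells against 105, 114, 79.4 and 67.1 CPM in BL/6 ctrl cells (1.79 ± 0.33, adjusted p = 0.0042). BL/6 AAV-Cre cells had 207, 200 and 213 CPM, and BL/6 Dox cells split by column position, with 184 and 194 CPM in replicates 3 and 4 against 61.5 and 60.3 CPM in replicates 1 and 2. Every library in columns 14 to 25 was thus above every library in columns 1 to 13. Snora30, an H/ACA box snoRNA, had 8.56, 9.77, 11.8 and 7 CPM in floxed cells against 2.44, 2.15, 3.65 and 2.37 CPM in BL/6 ctrl cells (1.81 ± 0.31, adjusted p = 0.0020). Gm26205, a predicted snoRNA gene inside Rpl6, had 5.82, 14.5, 21.3 and 10.7 CPM in floxed cells against 4.24, 4.18, 5.18 and 2.59 CPM in BL/6 ctrl cells (1.69, adjusted p = 0.0029). Relative to BL/6 AAV-Cre cells, log2 fold changes were 0.67 for Snora30 and 0.70 for Gm26205. Rnu4atac, the U4 RNA of the minor spliceosome, had 209, 214, 160 and 294 CPM in floxed cells against 68.3, 88.9, 68.8 and 69.7 CPM in BL/6 ctrl cells (1.57 ± 0.27, adjusted p = 0.0027). It too was high in BL/6 AAV-Cre cells, at 139, 164 and 233 CPM, and in BL/6 Dox 3 and 4, at 178 and 210 CPM, against 69.4 and 88.3 CPM in BL/6 Dox 1 and 2.

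Snord87, like Gm26205, was picked after its values were seen. Snord87 had 7.24, 6.93, 4.76 and 10.7 CPM in floxed cells against 0.864, 1.07, 0.824 and 0.225 CPM in BL/6 ctrl cells (3.29 ± 0.46, adjusted p = 0.00052). Lats1/2 KO cells had 11.1, 6.36 and 4.72 CPM, against 2.35, 1.89 and 4 CPM in BL/6 AAV-Cre cells. Its host gene Snhg6 had a log2 fold change of -0.87 (adjusted p = 0.46), and Srcap, the host of Snora30, one of 0.57 (adjusted p = 0.032). The difference between a snoRNA and its host was not tested. Set against BL/6 AAV-Cre, where edgeR called 0.123% of all genes, 0 of the 26 snoRNAs were called (4 at an unadjusted p under 0.05) and their median was 0.20. Set against BL/6 Dox 3 and 4, where 0.84% of all genes were called, 1 was.

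Mitochondrial rRNA, the RNA of the mitochondrial ribosome, showed the same division. These genes were picked after their values were seen. The 2 rRNAs together took 19.2%, 18.1%, 15.9% and 17.6% of all counts in floxed cells against 11.5%, 10.5%, 9.66% and 8.10% in BL/6 ctrl cells, with log2 fold changes of 0.86 ± 0.16 for mt-Rnr1 (adjusted p = 0.0031) and 0.89 ± 0.20 for mt-Rnr2 (adjusted p = 0.010, and 0.055 without BL/6 ctrl 4), and of 0.39 for mt-Rnr1 and 0.33 for mt-Rnr2 against BL/6 AAV-Cre. Across the series no library in columns 14 to 25 was below 13.6% and none in columns 1 to 13 above 11.5%. BL/6 Dox 3 and 4 had 14.5% and 13.8%, against 9.40% and 7.55% in BL/6 Dox 1 and 2. Mitochondrially encoded mRNAs took a smaller share in floxed cells, 11.8% to 13%, against 14.5% to 15.4% in BL/6 ctrl cells. BL/6 AAV-Cre cells were as low, at 10.5% to 12.9%. Against BL/6 ctrl edgeR called 0 of the 8 tested (5 at an unadjusted p under 0.05), DESeq2 3 and limma voom 4. The median log2 fold change of the 8 was -0.19 against BL/6 ctrl and 0.20 against BL/6 AAV-Cre.

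**Figure D3:**
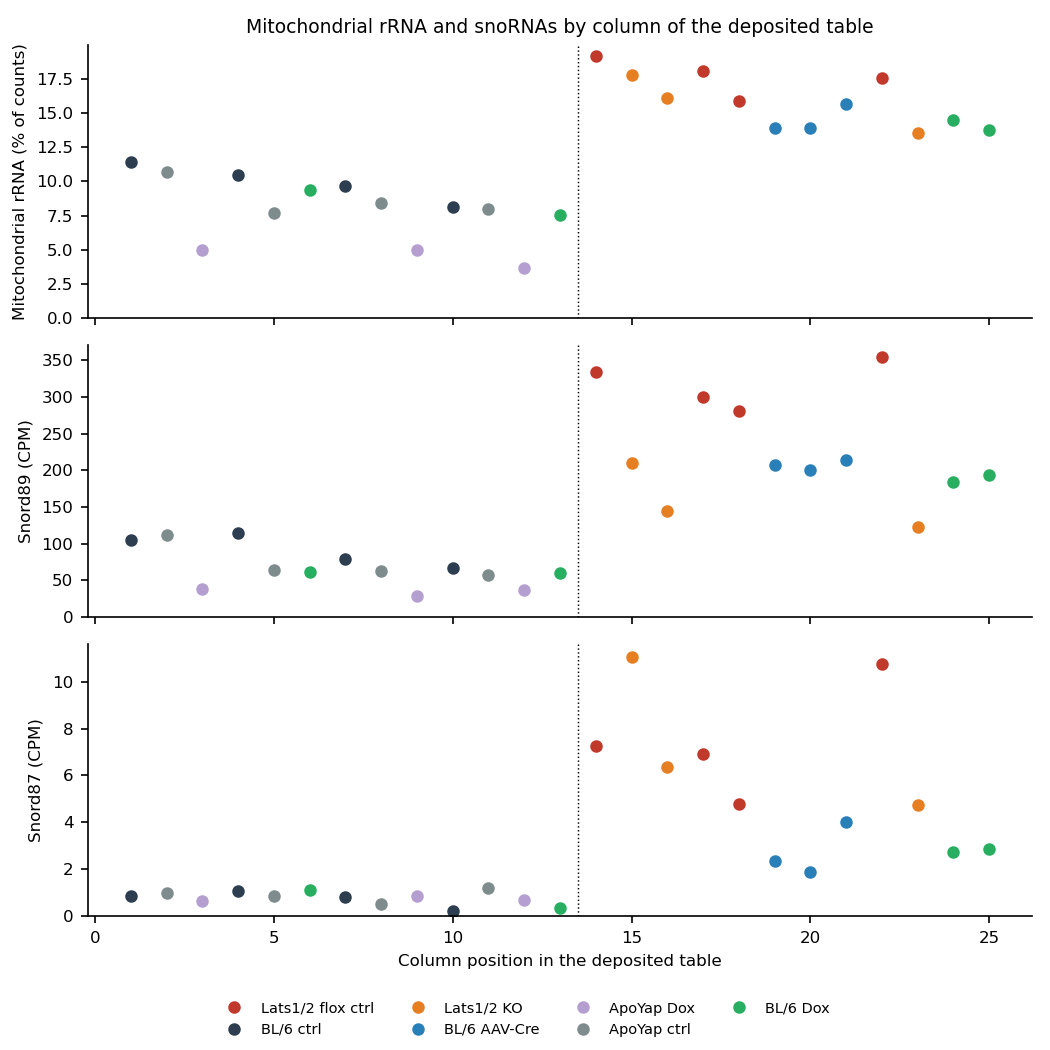
Share of counts from mitochondrial rRNA (percent) and TMM-scaled CPM of Snord89 and Snord87 in all 25 libraries, plotted by column of the deposited table, with colours for the 7 groups. Libraries right of the dotted line are all higher in each panel, and the 4 BL/6 Dox libraries, which stand on both sides, divide at it.

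Heat shock proteins fold client proteins in the cytosol and are driven by HSF1 during proteotoxic stress. Of 21 listed, 10 were higher in floxed cells (47.6%, against 3.15% of all genes) and 0 lower, with a median log2 fold change of 0.66. Bag3, a co-chaperone of HSP70 in selective autophagy, had 76.5, 86.6, 78.6 and 61.1 CPM in floxed cells against 21.5, 36, 24.4 and 36.6 CPM in BL/6 ctrl cells (1.36 ± 0.22, adjusted p = 0.0018). Hsph1, the HSP110 exchange factor, had 104, 123, 149 and 105 CPM in floxed cells against 35.8, 81.3, 35.8 and 60.2 CPM in BL/6 ctrl cells (1.18 ± 0.26, adjusted p = 0.014). Neither gene's groups overlapped. Hspa8, the constitutive HSC70, had 378, 423, 464 and 363 CPM in floxed cells against 165, 230, 189 and 295 CPM in BL/6 ctrl cells (0.89 ± 0.18, adjusted p = 0.0048). Cacybp, a calcyclin-binding cofactor, had 65, 62.7, 75.3 and 62.8 CPM in floxed cells against 36.5, 41.8, 33.7 and 39.2 CPM in BL/6 ctrl cells (0.81 ± 0.10, adjusted p = 9.1e-05). Both again lay apart. Hspb1, the small heat shock protein HSP27, had 37.2, 59.2, 90.9 and 49.5 CPM in floxed cells against 25.3, 28.2, 26.5 and 37.1 CPM in BL/6 ctrl cells (1.02 ± 0.23, adjusted p = 0.015), with floxed library 1 level with the highest BL/6 ctrl library. Without floxed library 3 or BL/6 ctrl 1 Hspb1 was not called (adjusted p up to 0.065), and neither was Hsph1 without BL/6 ctrl 1 (adjusted p = 0.052).

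The remaining called members, named after their values were seen, were Dnajb4 (0.92), Chordc1 (0.78), Stip1 (0.67), Hspa4l (0.63) and Dnaja1 (0.60), as log2 fold changes. The calls of Hspa4l and Dnaja1 were lost in 4 of the 8 fits without 1 library, BL/6 ctrl 3, floxed library 2 and floxed library 3 among them (adjusted p up to 0.091 and 0.089). The inducible HSP70 genes were not called. Hspa1b had 49.6, 48.9, 34.7 and 38.8 CPM in floxed cells against 3.46, 8.24, 5.89 and 63 CPM in BL/6 ctrl cells (1.10 ± 0.66, adjusted p = 0.39), where BL/6 ctrl 4 was above every floxed library. Without BL/6 ctrl 4 it was called (log2 fold change 2.90, adjusted p = 0.0076). Hspa1a had a log2 fold change of -0.07.

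The promoters of 4 called members are shown because HSF1 binds inverted repeats of GAA. They are the RefSeq promoters of GRCm38.p6, 250 bases before and 50 after the start, written 5′ to 3′ along the gene, with each GAANNTTC or TTCNNGAA in capitals. Each of these 2 patterns reads the same on both strands, and neighbouring matches may share bases.
Bag3 (chr7:128523333-128523632, plus strand): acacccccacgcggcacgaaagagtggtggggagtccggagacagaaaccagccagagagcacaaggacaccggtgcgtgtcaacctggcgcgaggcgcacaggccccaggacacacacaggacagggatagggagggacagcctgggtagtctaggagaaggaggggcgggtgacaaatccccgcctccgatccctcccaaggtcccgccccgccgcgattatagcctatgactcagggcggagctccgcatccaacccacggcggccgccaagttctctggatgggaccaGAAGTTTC
Hsph1 (chr5:149636287-149636586, minus strand): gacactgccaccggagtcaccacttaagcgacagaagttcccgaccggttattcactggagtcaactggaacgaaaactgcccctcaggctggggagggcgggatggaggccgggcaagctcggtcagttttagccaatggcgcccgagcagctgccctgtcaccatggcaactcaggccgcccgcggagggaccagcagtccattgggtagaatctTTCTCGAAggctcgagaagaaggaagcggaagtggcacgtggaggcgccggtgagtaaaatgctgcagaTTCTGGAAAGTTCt
Hspb1 (chr5:135887669-135887968, plus strand): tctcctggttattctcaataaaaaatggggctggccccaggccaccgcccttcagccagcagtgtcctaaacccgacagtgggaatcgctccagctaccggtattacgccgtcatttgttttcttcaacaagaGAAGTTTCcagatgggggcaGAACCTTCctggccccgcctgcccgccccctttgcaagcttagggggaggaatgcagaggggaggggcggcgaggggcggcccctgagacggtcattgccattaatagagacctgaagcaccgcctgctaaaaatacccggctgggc
Chordc1 (chr9:18292017-18292316, plus strand): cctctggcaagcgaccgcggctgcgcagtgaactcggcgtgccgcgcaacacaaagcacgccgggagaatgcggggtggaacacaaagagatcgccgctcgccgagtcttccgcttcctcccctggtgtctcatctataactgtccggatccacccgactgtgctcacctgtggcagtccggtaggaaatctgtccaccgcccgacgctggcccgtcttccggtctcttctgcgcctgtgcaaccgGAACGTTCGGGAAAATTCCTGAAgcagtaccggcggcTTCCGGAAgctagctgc
A match was present in 6 of the 9 called heat shock genes with a promoter in the table and in 5 of the 8 that were not called, against 17.0% of the 27025 gene symbols with a promoter in the table, and 15.1% of all 32851 promoters of this length. Bag3 held 1 match, Hspb1 2, Hsph1 3 and Chordc1 5. All 4 promoters shown thus hold a match, while those of the called genes Cacybp, Stip1 and Hspa4l hold none. The match of Bag3 and some of those of Hsph1 and Chordc1 lie after the start.

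Most heat shock genes were higher in floxed cells than in BL/6 Dox cells of either column position. BL/6 Dox cells were treated, and the list's median was 1.17 against all 4 of these libraries and 0.66 against BL/6 ctrl. The larger values thus include any drop in BL/6 Dox cells, which was not tested. Relative to BL/6 Dox 1 and 2, where 12% of all genes were called in either direction, 14 of the 21 were higher, with a median of 1.22. Set against BL/6 Dox 3 and 4, which stand in columns 24 and 25, 12 of the 21 were higher (0.609% of all genes), with a median of 1.21. With column position as a term of edgeR's fit 0 were called (14 at an unadjusted p under 0.05), and all 21 were above 0 with a median of 0.71. With BL/6 AAV-Cre as the reference 0 were called (1 at an unadjusted p under 0.05) and the median was 0.18. Bag3 shows this: BL/6 Dox cells had 27.4, 20.1, 32.7 and 30.4 CPM, all low, while BL/6 AAV-Cre cells had 40.8, 59.7 and 62.8 CPM, all above every BL/6 ctrl library and 1 of them above the lowest floxed one. Leaving out 1 library at a time gave 7 to 11 higher members. Chaperones of the endoplasmic reticulum leaned the same way. Of 22, 4 were higher (18.2%, against 3.15% of all genes) and 0 lower, and the median was 0.42. Pdia3, a disulfide isomerase of glycoprotein folding, had 571, 726, 696 and 720 CPM in floxed cells against 394, 495, 429 and 424 CPM in BL/6 ctrl cells (0.64 ± 0.11, adjusted p = 0.0025). Herpud1 (0.94), Pdia4 (0.70) and Ddit3 (1.08), an ER-associated degradation factor, a disulfide isomerase and the stress factor CHOP, were the others. Compared with BL/6 Dox 3 and 4, 12 of the 22 were higher, and against BL/6 AAV-Cre 0, also at an unadjusted p under 0.05. Without BL/6 ctrl 1, BL/6 ctrl 3, BL/6 ctrl 4, floxed library 2 or floxed library 3 the count was 1.

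**Figure D4:**
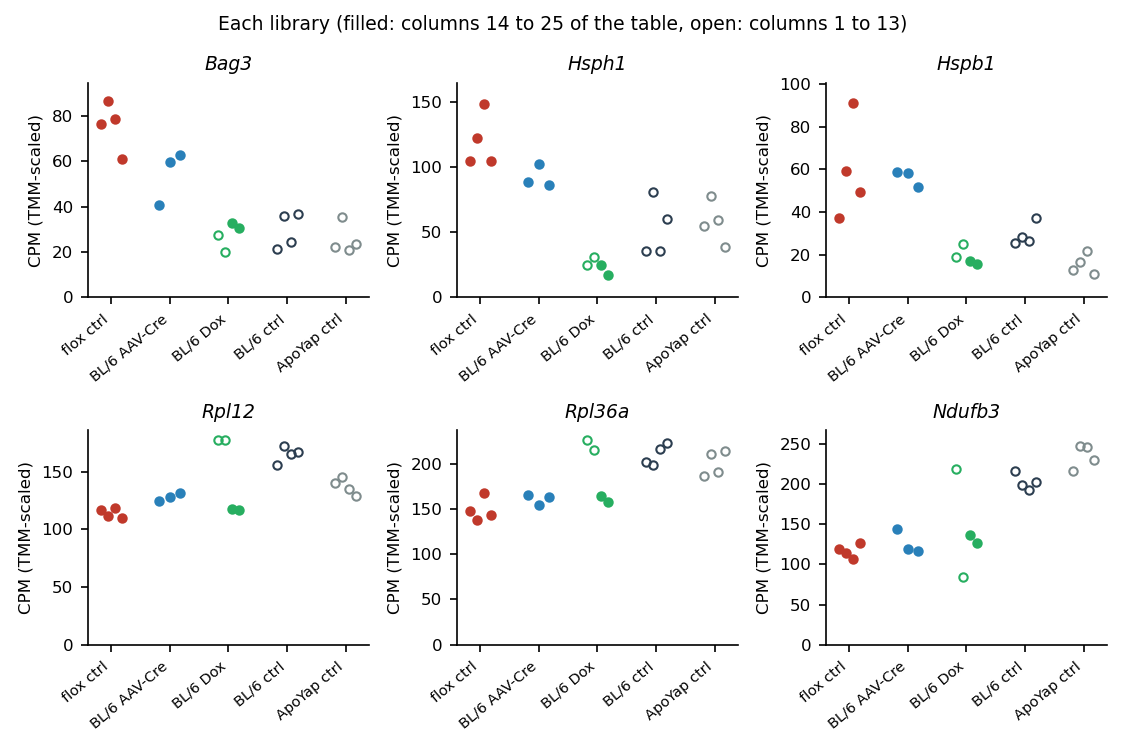
TMM-scaled CPM of 3 heat shock genes (top) and of 2 ribosomal protein genes and Ndufb3 (bottom) in each library of 5 groups, with filled points for columns 14 to 25 and open points for columns 1 to 13. Heat shock genes are low in all 4 BL/6 Dox libraries, while Rpl12 and Rpl36a divide BL/6 Dox cells by column position.

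Cytosolic ribosomal protein mRNAs are short, abundant and translated under TOR control. Of 77 tested, 20 were lower and 1 higher (Rpl23a, 0.49 ± 0.11, adjusted p = 0.012), 27.3% in all against 4.12% of all genes. In 73 the value was below 0 (49.2% of all genes were), and the median log2 fold change was -0.31. Rpl12, of the large subunit, had 116, 112, 119 and 110 CPM in floxed cells against 155, 172, 165 and 167 CPM in BL/6 ctrl cells (-0.53 ± 0.12, adjusted p = 0.0092). Rpl36a, also of the large subunit, had 148, 138, 167 and 144 CPM in floxed cells against 202, 198, 217 and 223 CPM in BL/6 ctrl cells (-0.49 ± 0.11, adjusted p = 0.010). The groups lay apart in both genes. Rps27a, which encodes a ubiquitin fusion of the small subunit, had 68.7, 71, 80.6 and 39.3 CPM in floxed cells against 110, 106, 117 and 121 CPM in BL/6 ctrl cells (-0.81 ± 0.21, adjusted p = 0.032). BL/6 Dox cells divided by column position, with 117 and 116 CPM of Rpl12 in replicates 3 and 4 against 177 and 178 CPM in replicates 1 and 2. Set against BL/6 Dox 3 and 4 the list's median was -0.05 with 0 called by edgeR (4 at an unadjusted p under 0.05), and against BL/6 AAV-Cre -0.09 with 0 called (1 at an unadjusted p under 0.05). With column position as a term of the fit the median was 0.09, so the direction turned. The count of lower members was 14 without floxed library 3 and 2 to 9 without each other library in turn, the lowest without BL/6 ctrl 4. Rpl34 (-0.40) was lost there too (adjusted p = 0.054). It was 36 in a fit of only the 8 libraries, 38 there with a replicate block, 44 in a fit of the 3 untreated groups and 36 with limma voom. Rps27a was called in 2 of the fits without 1 library, and Rpl23a was not called without BL/6 ctrl 4 (adjusted p = 0.058). Ribosomal protein genes have many processed copies in the genome, and how reads shared with these were counted is not stated.

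Of 70 nuclear genes of the respiratory chain, 2 were lower (2.86%), 64 were below 0 (49.2% of all genes were) and the median was -0.18. The count of lower genes was 18 in a fit of only the 8 libraries, 17 there with a replicate block, 24 with the 3 untreated groups, 9 with limma voom and 5 with DESeq2. Ndufb3, a complex I subunit, had 119, 114, 106 and 126 CPM in floxed cells against 216, 198, 193 and 203 CPM in BL/6 ctrl cells (-0.80 ± 0.20, adjusted p = 0.023), and Cox7b, a complex IV subunit, fell by 0.44 ± 0.12 (adjusted p = 0.036). BL/6 AAV-Cre cells had 144, 119 and 116 CPM of Ndufb3, close to the floxed values. The call of Ndufb3 was lost without floxed library 2 or 3 or BL/6 ctrl 1 or 4 (adjusted p up to 0.070), and that of Cox7b in all fits but the one without floxed library 1 (adjusted p up to 0.101). The median of the 70 genes against BL/6 AAV-Cre was 0.01, and with column position as a term it turned to 0.18.

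**Figure D5:**
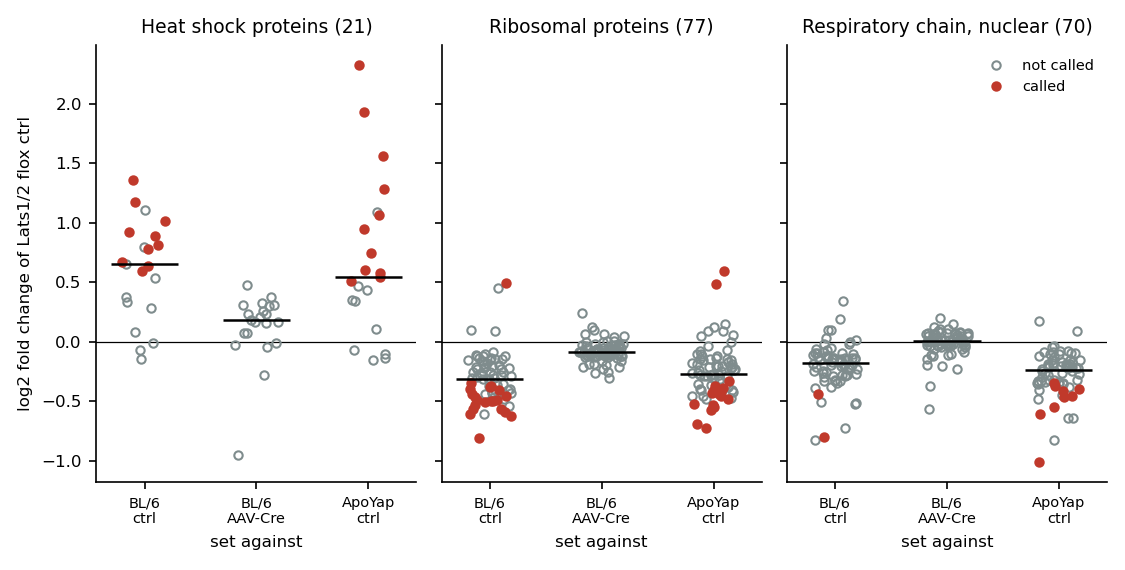
Log2 fold change of untreated floxed cells for each member of 3 gene lists, set against BL/6 ctrl, BL/6 AAV-Cre and ApoYap ctrl, with red points for called genes and a line at the median. The heat shock median is 0.66 against BL/6 ctrl and 0.18 against BL/6 AAV-Cre, and the ribosomal protein median is -0.31 and -0.09.

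Of 20 hepatocyte identity genes, Apob was called (5%, close to the 4.12% of all genes), and the median was -0.03. Apob, the structural protein of VLDL, had 1222, 1274, 1328 and 1173 CPM in floxed cells against 690, 684, 663 and 543 CPM in BL/6 ctrl cells (0.95 ± 0.18, adjusted p = 0.0030), while BL/6 AAV-Cre cells, at 1101, 1136 and 1286 CPM, lay close to the floxed range. Apoa4, another apolipoprotein, had 33.5, 34.4, 58.4 and 10.3 CPM in floxed cells against 11, 14.3, 7.42 and 13.3 CPM in BL/6 ctrl cells (1.56 ± 0.34, adjusted p = 0.012), so that floxed library 4 lay within the BL/6 ctrl range. Gls2, the liver glutaminase, had 134, 117, 106 and 96.1 CPM in floxed cells against 176, 176, 181 and 208 CPM in BL/6 ctrl cells (-0.71 ± 0.17, adjusted p = 0.019). The groups did not overlap in Apob or Gls2, and Gls2 lost its call without floxed library 3 or 4 or BL/6 ctrl 4 (adjusted p up to 0.073). Log2 fold changes against BL/6 AAV-Cre were 0.42 for Apoa4 and -0.09 for Gls2. On several lists edgeR's quasi-likelihood test called no gene. They held 26 genes of bile acid synthesis and transport, 36 of fatty acid oxidation, 24 of gluconeogenesis, 26 pericentral genes, 18 major urinary proteins and 20 iron genes. Of these 150 genes 17 had an unadjusted p under 0.05, DESeq2 called 3 and limma voom 8. The lists do not hold every gene of these pathways: Cyp39a1, of bile acid synthesis, and Pck2 were called and are not on them.

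Of 54 cytochrome P450 genes, which metabolise drugs and steroids, 2 were higher (3.7%, close to the 3.15% of all genes that were higher): Cyp17a1, a steroid hydroxylase, and Cyp39a1, an oxysterol hydroxylase of bile acid synthesis. Cyp17a1 had 19.6, 40.4, 31.4 and 33.8 CPM in floxed cells against 14.6, 14.6, 7.54 and 13.3 CPM in BL/6 ctrl cells (1.32 ± 0.32, adjusted p = 0.022), and Cyp39a1 had 14.8, 22.5, 18.7 and 16 CPM against 9.98, 8.95, 10.7 and 6.87 CPM (0.97 ± 0.22, adjusted p = 0.012). The groups lay apart in both genes. Cyp17a1 was not called without floxed library 2 or 3 or BL/6 ctrl 3 or 4 (adjusted p up to 0.073), nor Cyp39a1 without BL/6 ctrl 4 (adjusted p = 0.057). Of 44 phase II enzymes, which attach polar groups to drugs, 4 were lower (9.09%, against 0.971% of all genes) and 0 higher, with a median of -0.26. They were the glutathione transferases Gsta4 (-0.60), Gstt2 (-0.75) and Gsto1 (-0.44) and the sulfotransferase Sult5a1 (-0.92). Gstt2 lost its call without BL/6 ctrl 1 (adjusted p = 0.052) and each of the others without at least 4 of the 8 libraries in turn, BL/6 ctrl 3 and BL/6 ctrl 4 among them (adjusted p up to 0.151). The log2 fold changes were, with BL/6 AAV-Cre as reference, 0.28 for Cyp17a1, 0.26 for Cyp39a1, -0.32 for Gsta4, -0.57 for Gstt2, -0.32 for Gsto1 and -0.35 for Sult5a1.

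Immediate early genes are switched on within minutes of a stimulus. Of 32 tested, 1 was called (3.12%), 27 had values below 0 (49.2% of all genes did) and the median was -0.64. The called gene was Nr4a1, an orphan nuclear receptor, with 3.18, 2.73, 2.74 and 0.986 CPM in floxed cells against 10.5, 8.95, 18 and 40.9 CPM in BL/6 ctrl cells (-3.03 ± 0.73, adjusted p = 0.023). Its highest value was in BL/6 ctrl 4, and without BL/6 ctrl 4 or floxed library 2, 3 or 4 it was not called (adjusted p up to 0.097). Against BL/6 AAV-Cre it was -1.24. Of 24 clock genes, Clock (0.46) and Noct (1.40), a rhythmic deadenylase-like phosphatase, were higher and 0 lower (8.33%, against 4.12% of all genes called). The clock median was 0.05. Of 29 acute phase genes, Il1r1, an interleukin-1 receptor, was called (1.26 ± 0.34, adjusted p = 0.042), a share of 3.45%. Clock, Noct and Il1r1 each lost their call in at least 6 of the 8 fits without 1 library (adjusted p up to 0.139). Saa2, a serum amyloid A protein, had 33, 570, 2432 and 532 CPM in floxed cells against 53.6, 167, 31.7 and 31.9 CPM in BL/6 ctrl cells (3.65 ± 1.19, adjusted p = 0.094), so that floxed library 1 sat in the BL/6 ctrl range. The other called members were Stat2, an interferon signal transducer (0.68, of 45 interferon genes), Txnrd1, a thioredoxin reductase (0.53, of 28 NRF2 genes), Masp1, a lectin pathway protease (0.85, of 42 complement and coagulation genes), and Eif4ebp1, a translation repressor (-0.45, of 23 ATF4 genes). The shares called were 2.22%, 3.57% and 2.38% for the first 3 lists, all below the 4.12% of all genes. For ATF4 genes the share was 8.7% (1 higher and 1 lower). Stat2 and Txnrd1 lost their calls without BL/6 ctrl 4 (adjusted p = 0.054 and 0.074), Eif4ebp1 without floxed library 4 (0.055), and Masp1 in 5 of the 8 fits without 1 library, the one without BL/6 ctrl 4 among them (0.111). Relative to BL/6 AAV-Cre cells, log2 fold changes were 0.30 for Clock, -0.88 for Noct, 0.26 for Il1r1, 0.02 for Saa2, 0.16 for Stat2, -0.01 for Txnrd1, 0.04 for Masp1 and -0.33 for Eif4ebp1.

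Genes that bear on the sex and the substrain of the lines were not called. Ddx3y, a Y-linked RNA helicase, had 101, 88, 91.1 and 104 CPM in floxed cells against 88.2, 92.4, 88.8 and 80.7 CPM in BL/6 ctrl cells (0.14 ± 0.09, adjusted p = 0.45). Xist, the RNA that silences an X chromosome in female cells, had at most 5 counts in any library of either group. Nnt, a mitochondrial transhydrogenase that is disrupted in the C57BL/6J substrain, had 11.7, 15.6, 14.9 and 12.5 CPM in floxed cells against 13.1, 14, 16.1 and 13.5 CPM in BL/6 ctrl cells (-0.05 ± 0.14, adjusted p = 0.88). The groups overlapped in Ddx3y and Nnt, and a 3′ tag of Nnt does not read the internal exons lost in that substrain.

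Outside these lists, the largest rises among the better measured genes included Chrm3, the M3 muscarinic receptor, P4ha1, a collagen prolyl hydroxylase subunit, and Sephs2, a selenophosphate synthetase. Chrm3 had 7.02, 12.2, 10.2 and 10.2 CPM in floxed cells against 1.49, 2.75, 1.65 and 3.04 CPM in BL/6 ctrl cells (2.16 ± 0.40, adjusted p = 0.0030). P4ha1 had 17.4, 18.9, 14.3 and 16.2 CPM in floxed cells against 5.42, 6.21, 3.18 and 5.18 CPM in BL/6 ctrl cells (1.73 ± 0.30, adjusted p = 0.0025). Sephs2 had 85, 59.2, 71.9 and 74.3 CPM in floxed cells against 31.8, 27.9, 37.1 and 15.9 CPM in BL/6 ctrl cells (1.36 ± 0.21, adjusted p = 0.0012). In all of them every floxed library lay well above the highest BL/6 ctrl library. Log2 fold changes against BL/6 AAV-Cre were 1.85 for Chrm3 (adjusted p = 0.093), 0.31 for P4ha1 (0.90) and 0.45 for Sephs2 (0.67), so none of these calls held there. Cdkn1a, the p21 cell cycle inhibitor and a p53 target, had 51.7, 45.9, 36.3 and 187 CPM in floxed cells against 24.4, 13.1, 20.1 and 23.5 CPM in BL/6 ctrl cells (1.98 ± 0.46, adjusted p = 0.018). Without floxed library 4 its log2 fold change was 1.13 (adjusted p = 0.065), and it was not called without BL/6 ctrl 2 or BL/6 ctrl 4 either. BL/6 AAV-Cre cells, at 130, 189 and 278 CPM, were higher than 3 of the 4 floxed libraries. Mfsd2a, a lysolipid transporter (1.46), Slc17a8, a vesicular glutamate transporter (1.36), and Mir6236 (1.46) completed the rises. Mfsd2a and Slc17a8 lost their calls in 6 of the 8 fits without 1 library (adjusted p up to 0.111), and against BL/6 AAV-Cre they were -0.39 and 0.76, with Mir6236 at 0.42.

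Among the largest decreases, Cirbp, a cold-inducible RNA-binding protein, had 4.06, 5.22, 4.17 and 6.41 CPM in floxed cells against 10.7, 7.76, 14.6 and 11.6 CPM in BL/6 ctrl cells (-1.16 ± 0.22, adjusted p = 0.0037). Gnat1, a transducin subunit known from rods, had 2.96, 3.18, 2.38 and 3.25 CPM in floxed cells against 6.6, 4.77, 6.71 and 6.53 CPM in BL/6 ctrl cells (-1.06 ± 0.24, adjusted p = 0.014). Both were also lower in Lats1/2 KO than in BL/6 AAV-Cre cells (-0.96 and -1.02). Slc39a4, an intestinal type zinc importer, had 85.4, 58.4, 46.6 and 151 CPM in floxed cells against 184, 180, 173 and 179 CPM in BL/6 ctrl cells (-1.07 ± 0.28, adjusted p = 0.033). Dlc1, a GTPase activating protein, had 41.9, 37.1, 57.9 and 27 CPM in floxed cells against 82, 82.7, 58.8 and 82.1 CPM in BL/6 ctrl cells (-0.90 ± 0.17, adjusted p = 0.0034), with BL/6 ctrl 3 just above the highest floxed library. The transcription factor Klf11 (-1.15), Nipal1 (-1.43), Tmem51 (-1.27) and Mettl27 (-0.97) were the others. Gnat1 was not called without floxed library 3 (adjusted p = 0.052), and Slc39a4, Klf11, Nipal1, Tmem51 and Mettl27 lost their calls in at least 4 of the 8 fits without 1 library, BL/6 ctrl 1 and BL/6 ctrl 4 among them (adjusted p up to 0.122). Relative to BL/6 AAV-Cre none was called, with -0.79 for Cirbp, -0.85 for Gnat1, -0.73 for Slc39a4, -0.16 for Dlc1, -0.59 for Klf11, -1.22 for Nipal1, -0.76 for Tmem51 and -0.66 for Mettl27.

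The same floxed libraries were set against the other BL/6 groups. These comparisons share the floxed libraries, so their values stand side by side and none supports another. Against BL/6 AAV-Cre, whose libraries also stand in columns 14 to 25, 16 genes were called (0.123%), 4 higher and 12 lower. Of the 16, 9 lie on chromosome 14, which holds 431 of the 12742 tested genes with 1 position. The genes called in both comparisons, the list of which was made after the values were seen, were Cebpe, Gm26782, Nudt18, Nuggc, Ppp1r3e, Rab2b and Spryd7 on chromosome 14 and Rbm10, a splicing regulator on chromosome X. For Spryd7 the log2 fold change was -0.93 against BL/6 AAV-Cre and -0.83 against BL/6 ctrl, and for Nudt18 it was 1.15 and 1.04. The other 8 genes called against BL/6 AAV-Cre, of which 4 are named after their values were seen, include Mdm2 (-1.05), the p53 ubiquitin ligase, Ccng1 (-0.85), Ephx1 (-0.83) and Nfe2l2 (-0.64), which encodes NRF2.

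BL/6 AAV-Cre itself had 39 genes called against BL/6 ctrl (0.301%). This comparison shares the BL/6 ctrl libraries with that of floxed cells. The 409 higher genes had a median log2 fold change of 0.68 in floxed cells and 0.43 in BL/6 AAV-Cre cells, and the 126 lower ones -0.67 and -0.38, each against BL/6 ctrl. Against all 4 BL/6 Dox libraries, 663 genes were called in floxed cells (5.11%), 414 higher and 249 lower. Split by column position, the floxed cells had 775 higher and 783 lower genes against BL/6 Dox 1 and 2 (12% in all), and 79 higher and 30 lower against BL/6 Dox 3 and 4. BL/6 Dox 3 and 4 can also be set against BL/6 Dox 1 and 2, only 2 libraries on each side and none of them in the main comparison. There 20 genes were called higher and 52 lower in BL/6 Dox 3 and 4. Of the 409 higher genes, 328 were above 0 there (80.2%, against 55% of all genes). Of the 126 lower genes, 91 were below 0 (72.2%). Genes can vary together across so few libraries, and the part of column position in the calls was not tested. With column position as a term of the fit, which can be estimated through BL/6 Dox alone, 3 genes were called (0.0231%). They were Cebpe (-6.20), and, higher, Ncbp2 (1.25), a subunit of the nuclear cap-binding complex, and Dnajb2 (1.18), a neuronal co-chaperone, both named after their values were seen. Against ApoYap ctrl, in columns 1 to 13, 1156 genes were called (8.91%), while ApoYap ctrl differed from BL/6 ctrl, both in columns 1 to 13, in 57 genes (0.439%).

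Of the 535 called genes, 42 separated all 7 libraries of the floxed line (untreated and KO) from all 11 BL/6 libraries (untreated, AAV-Cre and Dox), against 0.563% of all genes tested. These libraries include the 8 by which the genes were called, so a higher share among called genes follows from that choice. Over all genes tested, 73 separated in this way, 15 of them on chromosome 14. That chromosome holds 431 of the 12742 tested genes with 1 position and 36 of the 527 called ones. Of the 42, 11 lie on chromosome 14: Gch1, Gm26782, Ndrg2, Rab2b, Sall2, Cebpe, Ppp1r3e, Spryd7, Nuggc, Polr3d and Nudt18. Igha, the constant region of IgA heavy chains on chromosome 12 and a plasma cell product, was another, and was picked after its values were seen. It had 2.96, 1.7, 4.17 and 1.97 CPM in floxed cells and 7.87, 10.3 and 7.85 CPM in Lats1/2 KO, against 0.854, 0.118 and 0.744 CPM in BL/6 AAV-Cre cells and 0.157, 0, 0 and 0 CPM in BL/6 ctrl cells. With 97 counts against 2, the ratio of floxed over BL/6 ctrl cells was 51.2 (95% exact interval 13.8 to 429, counting error only; adjusted p = 0.00011). BL/6 ctrl was low beside other groups too: edgeR also called Igha higher in ApoYap ctrl than in BL/6 ctrl (log2 fold change 3.52, adjusted p = 0.040). Floxed cells were 1.93 above ApoYap ctrl (adjusted p = 0.0051) and 2.17 above BL/6 AAV-Cre, the latter not called (adjusted p = 0.078).

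Markers of other liver cells were present in both groups, with overlapping sums. The 21 Kupffer cell and macrophage markers summed to 126 to 358 CPM in floxed cells and 150 to 339 CPM in BL/6 ctrl cells, the 21 sinusoidal endothelial markers to 164 to 472 and 206 to 478 CPM, and the stellate and fibroblast markers to 114 to 141 and 104 to 253 CPM. T, NK and B cell markers summed to 0 to 8.44 CPM in floxed cells and 0.901 to 4.16 CPM in BL/6 ctrl cells, with Cd3d, Trac, Klrb1c, Ncr1 and Cd79a at 0 in all 8 libraries. The neutrophil markers Ly6g, Il1r2 and Ngp and the biliary marker Krt7 were also at 0. edgeR called none of the 80 markers tested (6 at an unadjusted p under 0.05), nor did DESeq2 or limma voom. Yet most macrophage (18 of 21), endothelial (19 of 21) and stellate (18 of 19) markers had values below 0 (49.2% of all genes did). The part of these cells in the results was not tested.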

How the data were processed

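Hepatocyte RNA of 25 libraries in 7 groups was sequenced as 3′ tags. Per the submitters' processing notes, FastQC, cutadapt and STAR 2.6.1d were used with mm10 (GRCm38). The authors deposited 1 table of whole-number counts per gene, not normalized. The counting tool, its annotation and its strand setting are not stated, and PCR reads are not independent molecules, so intervals and floors cover counting error only. Here edgeR 4.0.16 (R 4.3.3) kept 12970 of 37117 genes (filterByExpr, minimum count 10, minimum total 15), scaled by TMM and fitted all 7 groups in 1 quasi-likelihood model. Adjusted p (Benjamini-Hochberg, over all genes tested) below 0.05 was a call, and each SE was taken from the log2 fold change and its F statistic. Totals per library of the compared groups ran from 9447816 to 14317362 counts, so a gene at 1 CPM rests on few counts. The fit was tested on simulated data.

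Groups come from the labels. The members and lists were chosen with earlier results of these data known. Named genes were the 12 higher and 12 lower calls of largest fold change with a mean log2 CPM of at least 2, no overlap and no predicted name, up to 4 members of each of 42 lists by smallest p (of which mainly the called ones are printed), every call within 10 Mb of Lats1 or Lats2, and single genes of Hippo signalling and line identity. Others are said to be picked after their values were seen. Positions are from GENCODE M21, promoters from RefSeq. DESeq2 1.42.0, limma 3.58.1, other scalings, filters, sample sets, reference groups and single libraries left out were the alternatives. Libraries of the same replicate number were not treated as paired in the main fit. Their deviations from group means correlated at 0.21, 0.10, 0.02 and 0.03, against -0.13 to 0.08 for libraries of different numbers. No replicate pair agreed within sampling noise. A few genes that the rule names are not reported here.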

Additional observations from a re-analysis of the deposited data

Results flagged for a closer look

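Among 198 groups of 4 libraries of named genes, 16 held 1 library far from the other 3. Chance flags about 1 in 20 groups (5%). Values are TMM-scaled CPM.

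In floxed cells, library 4 had 187 CPM of Cdkn1a, the p21 cell cycle inhibitor, against 36.3 to 51.7 in the others, and 0 CPM of Ankrd1, a YAP target, against 0.329 to 0.357. Library 1 had 17.2 CPM of Bmp4, a BMP ligand (others 7.27 to 8.40), 40.4 of the glutathione transferase Gstt2 (22.9 to 25.6) and 0.11 of Cebpe (others 0). Library 2 had 18.1 CPM of Ddit3, the stress factor CHOP (9.66 to 10.7), and library 3 had 13.7 CPM of Lats2 (12.9 to 13.1).

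In BL/6 ctrl cells, library 4 had 63.0 CPM of Hspa1b, an inducible HSP70 (others 3.46 to 8.24), 208 of the glutaminase Gls2 (176 to 181) and 42.2 of the importin Kpna3 (47.6 to 48.2). Library 2 had 167 CPM of Saa2, an acute phase protein (31.7 to 53.6), 88.9 of Rnu4atac (68.3 to 69.7), 10.1 of Rmnd1 (11.9 to 12.2) and 4.77 of Gnat1 (6.53 to 6.71). Library 3 had 58.8 CPM of Dlc1 (82.0 to 82.7), and library 1 had 0.157 CPM of Igha (others 0).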

How the results depend on the processing

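The comparison of floxed with BL/6 ctrl cells gave 409 higher and 126 lower genes, with 23 calls within 10 Mb of Lats1 or Lats2. Against BL/6 AAV-Cre these were 4, 12 and 7. Against all BL/6 Dox libraries 249 were lower, against BL/6 Dox 1 and 2 the counts were 775, 783 and 38, and against BL/6 Dox 3 and 4 they were 79, 30 and 11. With the mean of the 3 BL/6 groups as reference 76 were lower. With column position as a term, chosen after seeing the data like the split of BL/6 Dox, they were 2, 1 and 1. Stricter calls gave 128, 23 and 14 at an adjusted p below 0.01, 90, 32 and 14 at an absolute log2 fold change of at least 1, and 3, 4 and 5 when tested against a fold of 1.5. A window of 5 Mb held 12 calls. By tool, DESeq2 gave 249 lower genes, limma voom 806 higher, 382 lower and 37 in the windows. A fit of only the 8 libraries gave 316 lower genes, and one of the 3 untreated groups 643 higher and 450 lower. With total counts alone, Lats1/2 KO against BL/6 AAV-Cre had 5043 higher and 656 lower genes, and floxed against ApoYap ctrl 459 higher and 908 lower. Leaving out 1 library gave 168 to 335 higher and 34 to 100 lower genes, and 14 to 23 calls in the windows.

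The replicate numbers share no stated origin. With a replicate block, fitted on the 8 libraries, 507 genes were higher and 341 lower, against 507 and 316 in these libraries without the block, and 21 against 22 calls fell in the windows. For Lats1/2 KO against BL/6 AAV-Cre no paired fit was run.

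Some named genes turned their sign, and the cause was not tested. Against BL/6 AAV-Cre these were Bmp4 (0.58), Cdkn1a (-1.31), Dnajb4 (-0.027), Hspa1b (-0.28), Lats1 (-0.094), Lats2 (-0.13), Mfsd2a (-0.39), Noct (-0.88) and Txnrd1 (-0.012). Against BL/6 Dox they were Ccn2 (0.25), Ddx3y (-0.052), Lats1 (-0.019) and Yap1 (0.0021), against BL/6 Dox 1 and 2 Bmp4 (0.074), Ccn2 (1.67), Ddx3y (-0.071), Nr4a1 (0.15) and Yap1 (0.0052), and against BL/6 Dox 3 and 4 Ankrd1 (0.21), Ddx3y (-0.032), Lats1 (-0.37), Rpl23a (-0.028) and Wwtr1 (-0.024). With the position term they were Ankrd1 (0.13), Lats1 (-0.57), Lats2 (-0.24), Rpl12 (0.072), Tep1 (-0.32) and Wwtr1 (-0.073). Without 1 library Nnt ran from -0.12 to 0.015, above 0 without BL/6 ctrl 3 or floxed library 1, and Ccn2 from -0.89 to 0.31, above 0 without BL/6 ctrl 4 and also with limma voom (0.055). Genes of a few counts, such as Cebpe and Nuggc, have no precise fold change at this depth.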
